A study of Homo sapiens with 20 samples.

Results

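CTCF sites that carried no cohesin peak were examined in M14, an established human melanoma line. The 4 CTCF peak lists were merged into 135421 union sites on chromosomes 1 to 22 and X, and 69505 of these had a peak in every list. Of those, 3878 sites (5.58%, 95% Wilson interval 5.41% to 5.75%, counting error only) overlapped no peak of the 12 STAG1, STAG2 and SMC1A lists by even 1 bp. They are called cohesin-free sites here, and the name says only that no peak was listed there at the authors' thresholds. The peaks themselves chose these sites, so the CTCF strength of the sites and the lack of cohesin are descriptions and not findings.

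M14 cells carried a doxycycline-inducible shRNA against STAG2 in both conditions. Antibodies against CTCF, SMC1A, STAG1 and STAG2 were used for ChIP-seq, each on 2 WT and 2 STAG2-KD libraries. For replicate 1 the labels state 5 days of culture with doxycycline (STAG2-KD) or without it (WT), and for replicate 2 they give the genotype only. Replicate 1 libraries were size-selected with beads and replicate 2 libraries on a gel, nothing says that the replicates came from separate cultures, and 1 cell line with 1 inducible construct stands for melanoma here. The CTCF lists held 86248 and 122299 peaks in WT and 88575 and 115435 in STAG2-KD, in replicates 1 and 2. For STAG2, the protein targeted by the shRNA, the lists held 79048 and 118984 in WT and 58418 and 106135 in STAG2-KD. Read numbers are not in the lists; the lowest expected background of the CTCF lists corresponds to 20.2 and 37.4 M reads in WT and 21.6 and 38.5 M in STAG2-KD if the genome size was 2.7 Gb and the extension was that of the narrowest peak.

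CTCF is a zinc finger protein that binds a long DNA motif and marks the borders of many chromatin loops. Cohesin is a ring complex that extrudes DNA into loops and halts where CTCF faces it. SMC1A is part of the ring itself, and STAG1 and STAG2 are alternative subunits that help load cohesin and hold it at CTCF. In most cells the large majority of CTCF sites also carry cohesin, so a CTCF site without it is an exception to the usual pairing.

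The strongest cohesin-free sites with a CTCF motif are shown first, since their sequence can be read against the known binding mode of CTCF. Each run is hg19 reference sequence (GRCh37 primary assembly) read along the motif strand, centred on the match. The capitals mark the 15 bases from the start of the CTCF core. The sites were taken in order of their mean strength percentile over the 4 CTCF lists, leaving out windows that touch an annotated UTR.
KLC2 and KLC2-AS1, chr11:66032561-66032761, minus strand: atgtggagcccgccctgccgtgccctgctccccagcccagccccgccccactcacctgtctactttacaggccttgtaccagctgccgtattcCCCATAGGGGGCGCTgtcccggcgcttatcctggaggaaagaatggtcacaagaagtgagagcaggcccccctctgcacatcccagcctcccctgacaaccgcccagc
upstream of SRSF6, chr20:42073849-42073949, minus strand: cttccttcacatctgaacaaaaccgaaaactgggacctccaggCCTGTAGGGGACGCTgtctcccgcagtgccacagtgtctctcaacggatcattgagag
immunoglobulin heavy chain locus, chr14:107120163-107120263, minus strand: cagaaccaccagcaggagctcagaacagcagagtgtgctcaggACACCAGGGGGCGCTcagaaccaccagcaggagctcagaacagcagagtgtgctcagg
lncRNA on chromosome 19, chr19:29218615-29218715, minus strand: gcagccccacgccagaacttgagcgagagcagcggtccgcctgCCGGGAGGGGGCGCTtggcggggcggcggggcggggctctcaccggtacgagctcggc
between genes, HERPUD2 nearest, chr7:35633664-35633764, minus strand: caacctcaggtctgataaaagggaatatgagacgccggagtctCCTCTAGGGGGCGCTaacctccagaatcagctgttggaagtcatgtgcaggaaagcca
ST6GALNAC4P1, chr13:20392514-20392614, minus strand: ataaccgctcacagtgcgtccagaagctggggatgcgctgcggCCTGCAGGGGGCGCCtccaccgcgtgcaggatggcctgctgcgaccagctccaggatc

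In all 6 the capitals held the run of guanines that forms the centre of the CTCF core. The next 3 runs are the strongest cohesin-free sites whose best match stayed below the motif cutoff, with the capitals at that best match.
NOL10 intron, chr2:10818484-10818584, plus strand: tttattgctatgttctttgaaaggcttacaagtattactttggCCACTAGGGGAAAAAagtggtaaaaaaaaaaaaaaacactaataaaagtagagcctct
ADORA1 intron, chr1:203117444-203117544, plus strand: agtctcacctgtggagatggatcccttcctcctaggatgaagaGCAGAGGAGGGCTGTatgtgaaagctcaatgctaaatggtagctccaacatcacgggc
chromosome 3 site, chr3:10897771-10897871, minus strand: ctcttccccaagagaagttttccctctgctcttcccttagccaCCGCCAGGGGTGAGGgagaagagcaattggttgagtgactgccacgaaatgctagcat

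The NOL10 run held CCACTAGGGG, most of the core, followed by a run of adenines. It had CTCF fold enrichments of 26.1 and 26.5 in WT and of 27.0 and 24.5 in STAG2-KD for replicates 1 and 2. Fold enrichment is the authors' ratio of the pileup at the summit to the expected background. NOL10 encodes a nucleolar protein, and the site lay in one of its introns, 8704 bp from the nearest cohesin peak. All 4 libraries thus gave like values at this site. The other 2 runs came from introns of ADORA1, an adenosine receptor gene, and of SLC6A11, a GABA transporter gene.

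The number of cohesin lists at a CTCF site was spread unevenly. No list had a peak at 3878 sites, 1 list had one at 1902, and between 1406 and 5830 sites fell at each number from 2 to 11. All 12 lists had a peak at 37521 sites. Cohesin-free sites were thus more frequent than the sites at any single number from 1 to 9. The next sites outside the rule, those with 1 cohesin list, had it in an SMC1A list in 1098 cases, in a STAG2 list in 524 and in a STAG1 list in 280. In 1828 of these 1902 sites the list belonged to replicate 2, whose lists were longer and had a looser threshold. Their overlaps with the cohesin peak ranged from 3 to 647 bp, with a median of 194 bp.

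**Figure D1:**
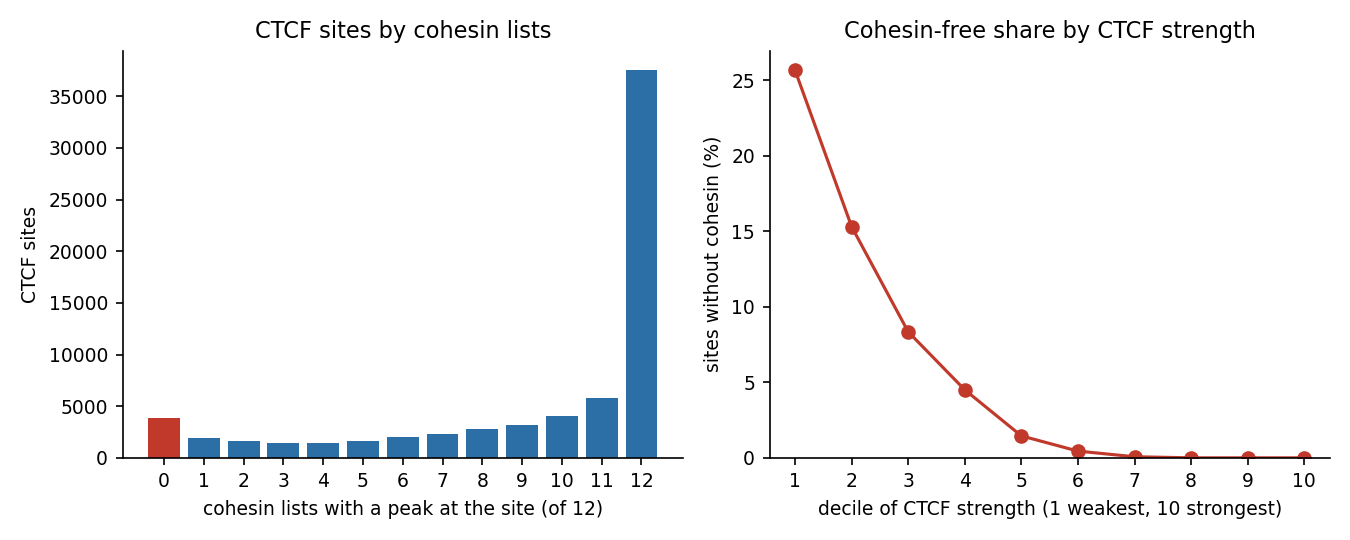
Left, number of CTCF sites (bars) by how many of the 12 cohesin lists had a peak at the site, with the 3878 cohesin-free sites in red and the 37521 sites with all lists at the right. Right, percentage of sites without cohesin in each decile of CTCF strength, falling from 25.7% in the weakest decile to 0% in the 3 strongest.

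Lack of cohesin went with weak CTCF enrichment. When the 69505 sites were split into deciles by mean strength percentile, 25.7% of the weakest decile were cohesin-free, then 15.3%, 8.34%, 4.50%, 1.45%, 0.446% and 0.0719%. The 3 strongest deciles had 0 of 6951, 0 of 6950 and 0 of 6951. The percentile of a peak is its rank by p-value among all peaks of its list. Of the cohesin-free sites, 1784 lay in the weakest decile and 1064 in the next.

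The median fold enrichment of the cohesin-free sites was 6.78 in WT replicate 1 and 6.42 in WT replicate 2. In STAG2-KD it was 6.12 and 5.67. Sites with all 12 cohesin lists had medians of 47.5, 33.8, 49.7 and 33.2 in the same order. The upper quartile of the cohesin-free sites, 7.48 to 8.97, stayed below the lower quartile of the 12-list sites, 23.6 to 29.3, in each library. Sites with 1 cohesin list were close to the cohesin-free ones, with medians of 6.60 to 7.34. The expected background solved from the fold and p-value columns was 1.24 ± 0.04 times (SD, n = 4 libraries) the lowest background of the list at cohesin-free sites and 1.37 ± 0.11 times at 12-list sites. The classes differed mainly in the pileup itself, with medians of 14 to 23 at cohesin-free sites and 109 to 151 at 12-list sites.

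**Figure D2:**
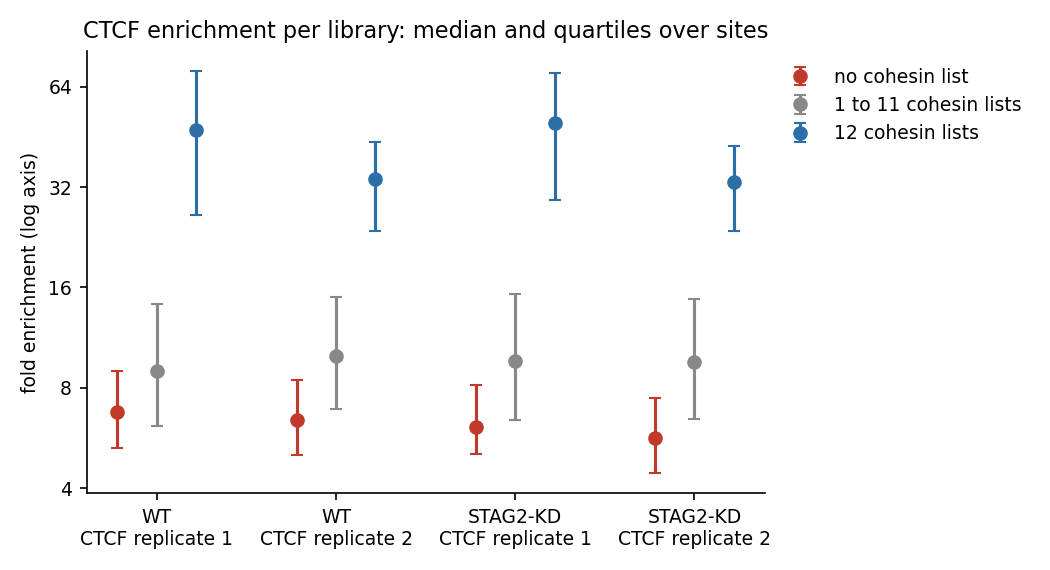
CTCF fold enrichment (vertical log axis, no unit) in the 4 CTCF libraries for cohesin-free sites (red), sites with 1 to 11 cohesin lists (grey) and sites with all 12 (blue). Points are medians over sites and bars run from the lower to the upper quartile; the red medians of 5.67 to 6.78 lie below the blue ones of 33.2 to 49.7.

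The cohesin-free sites with the highest mean percentile reached the range of ordinary CTCF sites. The first, at chr11:66032042-66033187, covered a coding exon of KLC2, a kinesin light chain gene, and the start of its antisense lncRNA KLC2-AS1. Its CTCF fold was 47.0 and 38.6 in WT and 50.0 and 38.4 in STAG2-KD, at a mean percentile of 77.9. The next cohesin peak was 1374 bp away. This site had nearly the same enrichment in both conditions of each replicate, at the level of a median 12-list site.

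The site at chr16:21695193-21696209 lay 0.031 kb from a transcript start of OTOA, which encodes an inner ear protein. Its fold was 26.4 and 20.5 in WT and 45.5 and 28.0 in STAG2-KD, higher after knockdown in both replicates. It was not called higher by the 1.5 fold rule described below, which it passed in replicate 1 only. A site in a coding exon of FAAH (chr1:46876657-46878706), which encodes the enzyme that breaks down anandamide, had folds of 40.1 and 24.98 in WT and 42.6 and 34.7 in STAG2-KD. The other strongest sites lay 12.7 kb from the start of the splicing factor gene SRSF6, in the immunoglobulin heavy chain locus, at lncRNA starts on chromosome 19, in introns of NOL10 and ADORA1, 100.5 kb from HERPUD2 and at the pseudogene ST6GALNAC4P1. Mean percentiles of these 10 sites ran from 69.4 to 77.9, and 8 of the 10 held a motif match. The OTOA, FAAH and ADORA1 sites lay 160, 436 and 122 bp from the nearest cohesin peak, and the others 748 to 24693 bp. Of all cohesin-free sites, 8.35% lay within 500 bp of one.

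CTCF motifs were less frequent at cohesin-free sites. A match to a CTCF matrix within 100 bp of the summit was present at 28.0% and 25.5% of them in the WT lists and at 28.0% and 25.4% in the STAG2-KD lists, a mean of 26.7% ± 1.4 (SD, n = 4 libraries). Sites with 1 cohesin list had 35.2% ± 1.6, those with 1 to 11 lists 39.6% ± 1.3 and those with all 12 had 68.5% ± 0.7. In the sequence 5 kb from the cohesin-free sites, 1.31% of windows matched. The share at cohesin-free sites was thus lower than in every other class and above that of nearby sequence. These SDs come from the same sites in each library, so they measure only where the summit was put and not the error of a class difference.

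Weak sites with cohesin were also poor in motifs, so the classes were compared within deciles of CTCF strength. In the weakest decile a match was found at 24.0% of the cohesin-free sites and at 27.2% of the sites with cohesin. In the following 4 deciles the cohesin-free sites had 25.9%, 29.2%, 32.2% and 37.6% against 31.2%, 35.2%, 40.6% and 44.6%. In the sixth decile, with 31 cohesin-free sites, the order was turned, 61.3% against 53.7%. Sites with cohesin that were weighted to the strength of the cohesin-free sites had 31.3%, compared with 26.7%. The gap to sites with cohesin was thus smaller at like strength than over all sites. Against 12-list sites alone the order turned: weighted in the same way, these had 19.1%. In the 3 weakest deciles 14%, 17.7% and 23.2% of the 12-list sites held a match, below the cohesin-free sites, and in deciles 4 and 5 they had 33.96% and 42.4%, above them. Of the 484 12-list sites in the weakest decile, 77.6% lay at transcript starts.

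**Figure D3:**
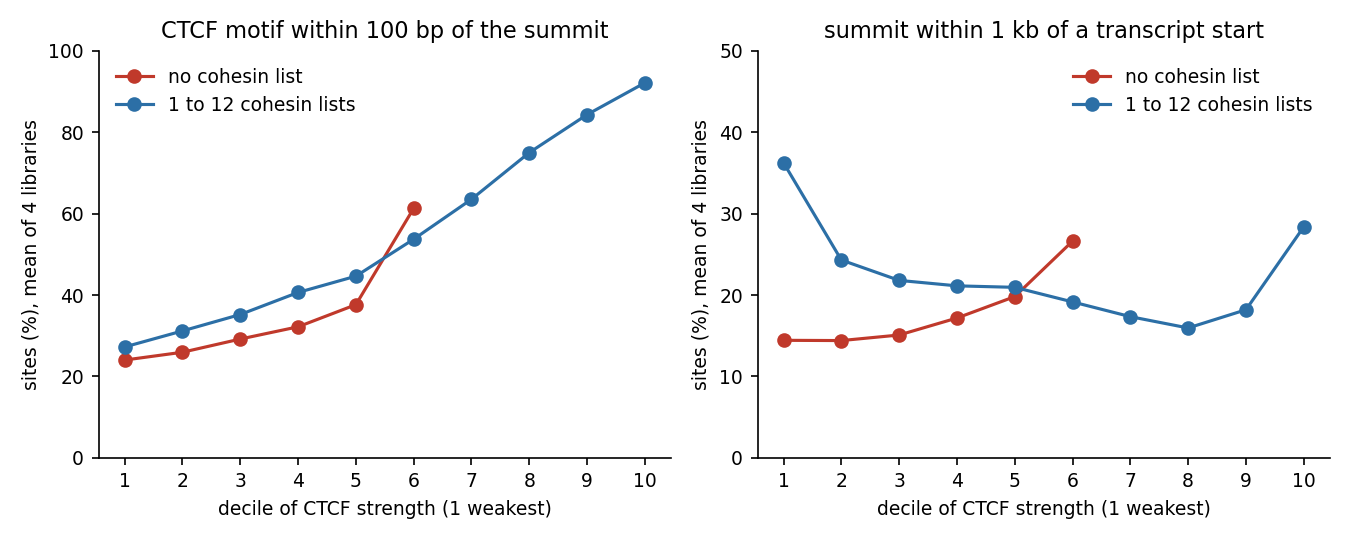
Percentage of sites, mean of the 4 CTCF libraries, with a CTCF motif (left) or with the summit within 1 kb of a transcript start (right), by decile of CTCF strength for cohesin-free sites (red) and sites with 1 to 12 cohesin lists (blue); deciles with under 20 sites are not drawn. Red lies below blue for the motif in deciles 1 to 5 and for transcript starts in deciles 1 to 5, most in decile 1 at 14.4% against 36.2%; in decile 6 red lies above blue in both panels.

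Where a cohesin-free site held a match, the median score was 16.6, compared with 18.2 at 12-list sites, 16.6 at sites with 1 cohesin list and 16.5 at sites with 1 to 11, so only the 12-list sites stood higher. The score is a sum of log2 odds over 34 motif columns, and the cutoff was 13.7. The summit lay a median of 17.0 bp from the core of the match, and 10.0 bp at 12-list sites. The match was kept best in the core. At position 2 of the core C was present in 99.6% of the matches at cohesin-free sites and in 99.8% at 12-list sites, and at position 7 G was present in 100% and 99.8%.

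Other columns differed, both within the core and outside it. A at core position 3 was found in 60.3% of matches at cohesin-free sites and 77.4% at 12-list sites. G at position 8 was found in 78.6% and 55.3%. At position 22, C made up 29.0% against 45.2%, and 3 bases upstream of the core T made up 29.8% against 42.4%. Upstream of the core some columns went the other way: 4 bases upstream, A, C, G and T made up 19.2%, 35.1%, 28.2% and 17.5% at cohesin-free sites and a nearly even 22.7%, 24.7%, 25.8% and 26.7% at 12-list sites. Matches were chosen by their total score, so the columns of a class are not independent of each other.

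Sites below the cutoff still held parts of the motif. Among 2599 cohesin-free sites with no match in WT replicate 1 and with usable sequence 5 kb away, CCACTAGG was present at 330 sites (12.7%) and at 8 of the windows 5 kb away (0.308%). CACTAGGG was present at 234 and 9. GCGCCCCC, which on the other strand is the right part of the core, was present at 129 and 3. Most of the 20 words of 8 bases that stood out most read as pieces of the CTCF core. With a looser cutoff, passed by 5% of windows 5 kb away, 50.3% of the cohesin-free sites in WT replicate 1 had a match, against 86.8% of the 12-list sites.

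Cohesin-free sites with and without a match differed little in CTCF strength. In WT the median fold was 6.87 and 6.61 with a match and 6.48 and 6.29 without one. In STAG2-KD it was 6.63 and 5.74 with a match and 6.12 and 5.53 without. The medians with a match were higher in each of the 4 libraries, by less than the quartile range of all cohesin-free sites. Their GC content differed more, 56.7% with a match and 48.8% without.

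Of the other motifs, SP, ETS and YY1 exceeded nearby sequence most in proportion at cohesin-free sites, ETS and YY1 at low shares. At 12-list sites ETS and YY1 were found at 1.96% and 2.05%. The SP motif GGGCGG, a promoter element, was present at 8.64% of the sites, compared with 4.54% of the windows 5 kb away and 13.4% of the 12-list sites. The AP-1 motif TGANTCA was at 6.06% and the TEAD motif GGAATG at 12.6%, with 6.49% and 10.4% in the windows 5 kb away. E-boxes (CACGTG), ETS (CCGGAAG), YY1 (AAGATGGC) and ZNF143 (ACTACAA) motifs were found at 3.38%, 1.37%, 1.496% and 1.99% of the sites, against 2.65%, 0.752%, 0.808% and 2.37% 5 kb away. The NRF1 motif, common at CpG-rich promoters, was at 0.0516% of the cohesin-free sites, very few sites, and at 0.0836% of the windows 5 kb away. At 12-list sites the NRF1 motif was at 0.640%, against 0.0287% 5 kb away. All motifs were searched on both strands within 100 bp of the summit. SP matches can overlap the G-rich CTCF core, and they were at 14.7% of the sites with a CTCF match and at 6.27% of those without. A match describes the letters in the window and not binding.

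Most cohesin-free sites lay within genes. Introns held 51.7% ± 0.14 (SD, n = 4 libraries), compared with 42.8% ± 0.084 of 12-list sites, and exons held 6.93% ± 0.13 compared with 5.06% ± 0.074. The 4 libraries share the same sites, so these SDs reflect only where each library put the summit. Intergenic sites made up 26.4% ± 0.015 and 30.6% ± 0.010. Summits within 1 kb of a transcript start made up 15.01% ± 0.049 and 21.5% ± 0.022, and for protein-coding transcripts 5.62% ± 0.094 and 13.3% ± 0.023. Starts therefore held a smaller share of the cohesin-free sites, and introns a larger one. The gap at starts was widest at weak sites: in the weakest decile of CTCF strength 14.4% of the cohesin-free sites and 36.2% of the sites with cohesin lay there, and in the fifth decile 19.8% and 20.9%. In the sixth, with 31 cohesin-free sites, the order was turned, 26.6% against 19.2%. With every list limited to as many of its strongest peaks as the shortest list held, the share at starts was 19.8% for cohesin-free sites and 19.6% for sites with all lists, so the order did not hold.

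At the median cohesin-free site 50.5% ± 0.3 of the bases within 100 bp of the summit were G or C, compared with 48.6% ± 0.2 at 12-list sites. CpG was less frequent, at 0.208 ± 0.001 of the number expected from the base composition, compared with 0.258 ± 0.001. In sequence 5 kb from the cohesin-free sites these values were 43.8% and 0.197. Cohesin-free sites were thus richer in G and C than the sequence beside them, with CpG near the level of that sequence. The order in GC was turned when SMC1A alone stood for cohesin, 49.3% against 49.5%, and without replicate 1, 48.8% against 49.3%.

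Of the 3878 sites, 220 had their WT replicate 1 summit within 1 kb of a protein-coding transcript start. After OTOA the strongest was at RASAL1, which encodes a Ras GTPase-activating protein (chr12:113573140-113573983). It had folds of 35.9 and 24.4 in WT and 32.6 and 21.7 in STAG2-KD. The others of the 10 strongest were at WDR90, ATP13A2, ESRRA, BOLL, ERC2, PRR23C, RIMS1 and the divergent pair C3orf85 and MORC1. ESRRA encodes a nuclear receptor of energy metabolism, and ATP13A2 a lysosomal transporter. BOLL and MORC1 are known from germ cells and ERC2 and RIMS1 from the synapse. These genes were picked out of the 10 sites, and no share of such genes over other promoter sites was taken. Expression of the listed genes was not measured here. At BOLL (chr2:198650428-198651223) the fold was 30.6 and 20.8 in WT and 19.4 and 12.8 in STAG2-KD, lower in both replicates. At ERC2 (chr3:56502327-56503101) it was 18.5 and 15.9 in WT and 27.0 and 20.4 in STAG2-KD, higher in both. By the 1.5 fold rule described below BOLL was called lower, as were 7.35% of cohesin-free sites and 4.39% of all 69505 sites. ERC2 was not called.

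The question put to the CTCF lists was whether CTCF differed between WT and STAG2-KD at sites without a cohesin peak. The rule needs a peak in all CTCF lists and none in either set of cohesin lists, so it does not use the direction of the CTCF difference. Its cohesin part is still not neutral to the size. The median centred log2 ratio described below was −0.09 with the WT cohesin lists only and −0.19 with the STAG2-KD ones only. The median percentile of cohesin-free sites was 27.4 and 46.2 in WT and 24.0 and 40.3 in STAG2-KD, in replicates 1 and 2. The difference was −4.62 ± 1.72 percentile points (SD, n = 2 replicates). Ranks were taken in lists of different lengths, and the median percentile over all 69505 sites also differed between STAG2-KD and WT, by 1.15 points in replicate 1 and −1.69 in replicate 2. With lists limited to equal length the difference was −2.16 ± 1.48, and it was −1.66 without replicate 2. The difference was negative in both replicates but smaller than the gap between the replicates, whose lists differ in threshold and length. A two-sided exact permutation test without pairing gave p = 0.667, where 2 libraries against 2 cannot go below 0.333. Paired within replicates, an exact sign-flip test gave p = 0.5, the smallest 2 pairs can give. Neither test could decide the question.

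Within a replicate, the log2 ratio of CTCF fold, STAG2-KD over WT, was centred on its median over all 69505 sites. Its median at cohesin-free sites was −0.16 in replicate 1 and −0.14 in replicate 2, a mean of −0.15 ± 0.01 (SD, n = 2). At sites with 1 cohesin list it was −0.10 in both, and at 12-list sites 0.00 and 0.02. The ratio was below the overall median in both replicates at 1823 cohesin-free sites, 47.0%, where the background over all sites was 34.7%. It was above it in both at 862 sites, 22.2%, with a background of 34.7%. CTCF fold at cohesin-free sites was thus lower relative to all CTCF sites in both replicates. The size depended on the lists: the mean was −0.069 with every list limited to as many of its strongest peaks as the shortest list held, and it was −0.096 when the sites were chosen and measured without replicate 1 and −0.098 without replicate 2.

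A site was called lower or higher when its centred ratio passed 1.5 fold the same way in both replicates. By this rule 285 cohesin-free sites (7.35%) were lower in STAG2-KD, and the background was 4.39%. Only 80 (2.06%) were higher, with a background of 4.16%. Sites with 1 cohesin list had nearly the same lower share, 138 of 1902 (7.26%), and 67 (3.52%) were higher. The excess of lower calls over the background was thus shared with those sites. These are rules of size with no p-value, since each condition has 1 library in a replicate. With lists limited to equal length the lower share was 4.28%, and the background 3.53%.

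The shift was seen at each level of CTCF strength with 20 or more cohesin-free sites. In the 6 weakest deciles the median centred ratio of cohesin-free sites lay between −0.27 and −0.06 for replicate 1 and between −0.16 and −0.11 for replicate 2. Sites with cohesin in the same deciles had −0.07 to 0.09 and −0.08 to 0.06. Weighted to the strength of the cohesin-free sites they had −0.01 and −0.05, with 5.49% called lower and 4.60% higher. It was similar with and without the motif, since sites with a match had −0.17 and −0.16, and sites without one −0.15 and −0.14. Sites at transcript starts had −0.17 and −0.14, and those elsewhere −0.16 and −0.14. The cohesin lists used for the rule moved the value more. It was −0.09 when a site had to lack cohesin in the WT lists only, and −0.19 when it had to lack it in the STAG2-KD lists only, an alternative added after seeing the data.

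**Figure D4:**
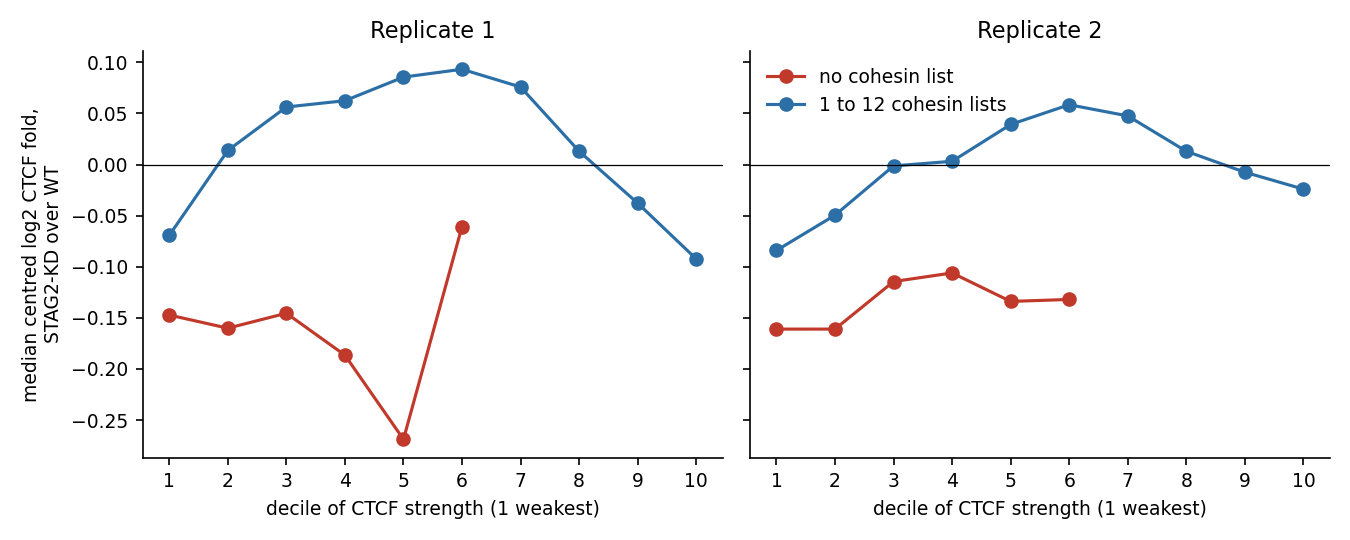
Median log2 ratio of CTCF fold, STAG2-KD over WT, centred on all sites, by decile of CTCF strength in replicate 1 (left) and replicate 2 (right) for cohesin-free sites (red) and sites with 1 to 12 cohesin lists (blue); deciles with under 20 sites are not drawn. Red points lie below the blue ones in each of deciles 1 to 6, between −0.27 and −0.06 in replicate 1 and between −0.16 and −0.11 in replicate 2.

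The sites with the largest changes were chosen by that ratio, so their values are descriptions. The largest decrease was in an intron of EYA2 (chr20:45567682-45568180), a transcriptional coactivator gene, where the fold was 13.7 and 9.40 in WT and 4.16 and 2.24 in STAG2-KD. In an intron of LSAMP, a neuronal adhesion gene (chr3:115580022-115580747), it was 24.6 and 18.1 in WT and 6.69 and 7.90 in STAG2-KD. The site in CX3CR1, the fractalkine receptor gene (chr3:39314462-39315198), had 15.3 and 12.7 in WT and 6.08 and 3.98 in STAG2-KD. Sites in introns of ANO4 and NELL2 were the other 2 of the 5. Of these 5 sites 1, in CX3CR1, held a motif match.

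The largest increase was in an intron of CD82, a tetraspanin gene known as a metastasis suppressor (chr11:44588421-44589095). Its fold was 5.80 and 7.27 in WT and 16.5 and 14.5 in STAG2-KD. In TOLLIP, which encodes an inhibitory adaptor of Toll-like receptor signalling (chr11:1324438-1325057), it was 4.08 and 4.76 in WT and 11.2 and 9.56 in STAG2-KD. The other 3 lay near NPBWR1, in TMEM108 and in a lncRNA near GARIN1A. None of these 5 sites had a motif match above the cutoff, and the CD82 site lay 603 bp from a cohesin peak.

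Distances from cohesin-free sites to cohesin were not set beside those of random positions or other sites. The values therefore do not show whether cohesin was nearer or farther than elsewhere. The nearest peak of any cohesin list was a median of 4728 bp from the site edge, with quartiles of 1688 and 11932 bp. It lay within 1000 bp for 634 sites (16.3%) and within 10000 bp for 2738 (70.6%). The nearest CTCF site with all 12 lists was a median of 19505 bp away. A site with all 12 lists carries cohesin peaks itself, so the shorter median distance to cohesin follows largely from the definitions. At single sites the order can turn: the WDR90 site lay 28 bp from a 12-list site and 398 bp from a cohesin peak.

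Just inside the rule, 47 sites lay within 100 bp of a cohesin peak without touching it, the closest at 5 bp in an intron of GAS7. Their mean motif share was 39.4%, and 33.0% were at transcript starts. The 1140 sites more than 10000 bp from cohesin had 26.1% and 10.6%. Sites near cohesin were thus more often at starts, while the median percentile was similar, 29.0 and 33.9. The farthest site, 184325 bp from any cohesin peak, lay in an intron of MARCHF1, a ubiquitin ligase gene (chr4:165241963-165242461), with folds of 6.33 and 6.17 in WT and 6.63 and 7.33 in STAG2-KD. The next was between genes on the X chromosome (chrX:79105421-79106162), with folds of 20.04 and 18.8 in WT and 11.7 and 13.4 in STAG2-KD.

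**Figure D5:**
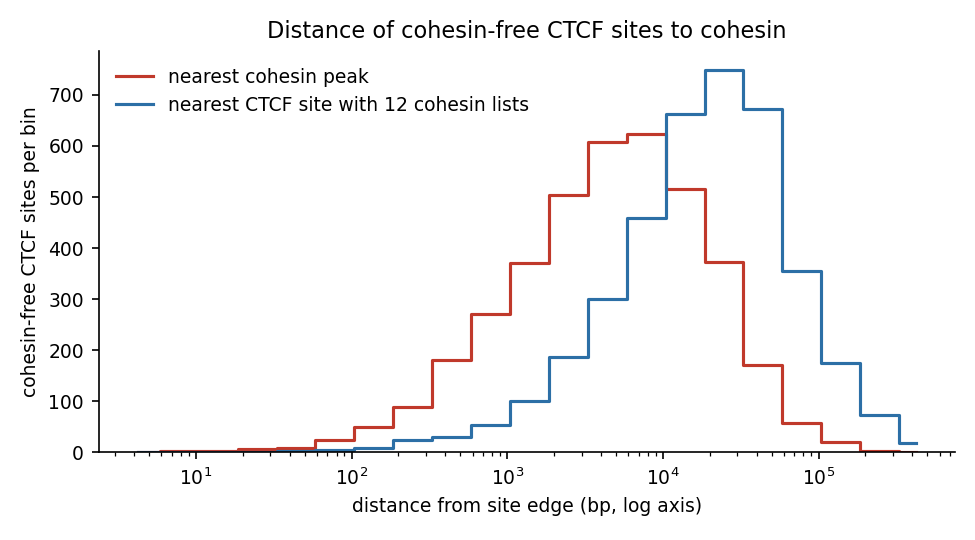
Number of cohesin-free CTCF sites per distance bin (horizontal log axis in bp, bins of equal width on it) to the nearest cohesin peak (red) and to the nearest CTCF site with all 12 cohesin lists (blue). The medians are 4728 bp and 19505 bp.

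The sites were spread over all chromosomes, with a share of the 4-list CTCF sites from 4.42% on chromosome 5 to 6.78% on chromosome 16. Neighbouring cohesin-free sites were a median of 377859 bp apart, and 89 pairs lay within 10 kb. Their density ran from 0.821 per Mb on chromosome 4 to 2.74 per Mb on chromosome 19. The spacing was not set beside that of random positions or other CTCF sites. Whether cohesin-free sites cluster was therefore not tested.

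Of 20098 protein-coding genes, 3007 (14.96%) had a cohesin-free site within 10 kb of the gene body. Of the 17 interferon genes listed, 1 did: IRF1, a transcription factor of the interferon response, had 2 of its 8 CTCF sites without cohesin. Among 11 melanocyte lineage genes EDNRB and KIT, both receptors of that lineage, had 1 each. Among 16 genes of cohesin and its regulators STAG2 had 1 of 12, and among 13 imprinted genes MEG3, MEST and SNRPN had 1 each. These lists are too short for their shares to be read against the 14.96% of all protein-coding genes.

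At EDNRB (chr13:78484522-78485176), the endothelin receptor of melanocyte precursors, the intronic site had folds of 14.7 and 9.21 in WT and 18.5 and 10.6 in STAG2-KD. The stronger IRF1 site (chr5:131795827-131796510) had 10.9 and 8.35 in WT and 10.7 and 8.69 in STAG2-KD. The site in the annotated bodies of both STAG2, the targeted gene, and SH2D1A (chrX:123362553-123363141) had 6.36 and 8.29 in WT and 6.12 and 5.10 in STAG2-KD. At these 3 loci the direction was shared by both replicates at EDNRB and STAG2. The MEG3 site (chr14:101293354-101293961), at the start of this imprinted maternal lncRNA, held a match with a score of 22.3, above the median of 18.2 for matches at 12-list sites, at folds of 6.86 and 5.52 in WT and 5.61 and 6.05 in STAG2-KD. The MEST site (chr7:130130461-130131206) lay 0.292 kb from a start of that paternally expressed gene, with 8.44 and 8.43 in WT and 7.14 and 6.57 in STAG2-KD. None of the 8 sites near listed genes passed the 1.5 fold call in both replicates. Of all cohesin-free sites 7.35% were called lower and 2.06% higher, and of all 69505 sites 4.39% and 4.16%. With only 8 sites, the lack of calls says little about these genes.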

How the data were processed

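The study's methods give alignment to hg19 with Bowtie2, removal of duplicate and low-quality reads with SAMtools and Picard, and peak calling with MACS2 against input. The submitters' processing notes name Bowtie2 for replicate 1 and CASAVA 1.4, BWA, SAMtools, Picard and deepTools for replicate 2, and MACS2 for both. The authors deposited 1 list per library, with a whole-number score, a fold enrichment (a ratio of pileup to background), and −log10 p and −log10 q values. The score deposited is the −log10 q (replicate 1) or −log10 p (replicate 2) times 10. Replicate 1 lists hold −log10 q of at least 2, and replicate 2 lists −log10 p of at least 2, so strength was ranked within a list. The 20 samples include 4 inputs, which had no list here.

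Peaks on chromosomes 1 to 22 and X were merged where they overlapped by 1 bp or more, and where a list had several peaks at a site the one with the smallest p was used. The motif matrix of 34 columns was built from core matches at the 69505 CTCF sites, and its cutoff of 13.7 was passed by 1% of windows 5 kb away. The matrix was thus trained on all classes together. Background was solved from the fold and −log10 p columns. Annotation was GENCODE lifted to GRCh37, a build on which 0 peaks ran past a chromosome end. Analyses used numpy 2.4.6, pandas 2.3.3 and scipy 1.17.1, and the functions were tested on simulated data. Values over sites are descriptions without p-values, and libraries were compared by an exact permutation test. The labels give WT and STAG2-KD libraries of one replicate the same extraction and size selection protocol and a different one between replicates. Their deviations from the group means had r = 0.65 over the 69505 sites, 1 value for both replicates since with 2 libraries a group the deviations mirror each other.

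The members, gene lists and comparisons were chosen with earlier results of these data known. The rule for named sites took the 10 strongest members, the 10 strongest at protein-coding starts, the 5 largest changes each way, members within 10 kb of a listed gene, and the 5 nearest to and the 5 farthest from cohesin, of which some are given by range. The repeat share was not computed, since the reference used here marks no repeats.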

Additional observations from a re-analysis of the deposited data

How the results depend on the processing

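The site definition, thresholds and replicates were varied in 12 ways, 1 of them (cohesin lists of STAG2-KD only) chosen after seeing the data; motif, promoter, window and centring choices were varied in turn. The number of sites went from 3878 to 2334 with −log10 q of at least 5 in the CTCF lists, 2407 with lists of equal length and 6604 with SMC1A alone. Without one replicate it was 9948 to 11375. The median percentile difference kept its sign in all 13 alternatives (−6.65 to −1.66 without one replicate). With the replicate block, an exact sign-flip permutation test of the paired differences, it was −4.62 with p = 0.5, the smallest 2 pairs can give.

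The median centred log2 ratio was −0.11 with −log10 q of at least 5 in all lists, −0.13 with that in CTCF lists, −0.069 with equal lists, −0.090 with WT cohesin lists and −0.19 with STAG2-KD cohesin lists, and −0.098 to −0.096 without one replicate. The share called lower was 6.27%, 5.91%, 4.28%, 6.11% and 9.29% in the same order, and 1.01% at 2 fold. Without one replicate, where a call rests on 1 replicate, it was 14.3% to 17.1%. It stayed above the background in all 14 alternatives.

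The motif share was 34.1% with −log10 q of at least 5 in all lists, 28.9% with that in CTCF lists, 40.1% with equal lists and 29.8% with WT cohesin lists. It was 13.2% with the core pattern, 48.2% with the looser cutoff, 18.8% within 50 bp and 22.3% to 33.4% without one replicate. It was below that of the comparison sites in all 16 alternatives, which were sites with all lists except in the weighting by CTCF strength, where they were sites with 1 to 12 lists (31.3%); sites with all lists weighted in that way had 19.1%, below the 26.7% of the cohesin-free sites.

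The promoter share was 15.3% with −log10 q of at least 2, 17.6% and 15.3% with at least 5 in all or in CTCF lists, and 19.8% with equal lists. It was 14.4% when cohesin within 500 bp counted, 15.4% with 50% overlap and within 200 bp of the summit, and 13.8%, 16.2% and 14.9% with SMC1A, WT or STAG2-KD lists. It was 27.8% with a 2.5 kb window, 5.62% for protein-coding starts and 13.0% to 19.5% without one replicate. It was below that of sites with all lists in 14 of 15 alternatives, with equal lists as the exception.

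Median GC was 51.1% with −log10 q of at least 5, 52.0% with equal lists, 50.9% with 50% overlap, 50.8% within 200 bp of the summit, 49.3% with SMC1A, 51.5% with WT lists, 52.2% within 50 bp and 48.8% to 51.7% without one replicate. The background ratio was 1.197 with −log10 q of at least 5 and 1.15 with equal lists, and 1.21 to 1.28 without one replicate. The cause of these moves was not tested. Repeats were not run. Sites just under a threshold count as absent, and depth differs between the replicates.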

Other observations

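Some CTCF sites lacked cohesin in only one condition. Of the 69505 CTCF sites, 1373 had no cohesin peak in the 6 WT lists and at least 1 in the STAG2-KD lists, and 1645 had none in the 6 STAG2-KD lists and at least 1 in WT. Among sites free in WT, 166 had STAG1 in both STAG2-KD lists, 168 had SMC1A in both and 11 had STAG2 in both. Among sites free in STAG2-KD, 209 had STAG2 in both WT lists, 107 had SMC1A in both and 82 had STAG1 in both. Most sites of either kind thus had none of the 3 cohesin subunits in both of its lists of the other condition. STAG2 was the target of the shRNA, and the counts rest on the authors' thresholds with no test.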
